A study of Mus musculus with 3 samples.

Results

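Subunits of amino acid transporters were read in embryoid bodies of the mouse. These are clumps in which embryonic stem cells, grown in suspension without the cytokine LIF, differentiate into many cell types. The set holds 10 genes: the heavy chains Slc3a1 and Slc3a2 and 8 genes of the Slc7 family, Slc7a1, Slc7a3, Slc7a5, Slc7a6, Slc7a7, Slc7a8, Slc7a9 and Slc7a11. They were chosen by the gene name printed for each probe in the scanner files, and all 10 had at least 1 probe. Of the 20389 genes on the arrays that were bright enough to be tested, 9 were members, all but Slc7a11. The list was drawn up with the ratios of these arrays already known, so the ratios of its members are given as a description with no test.

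The arrays compared wild-type embryoid bodies with embryoid bodies of the genotype Dido3deltaCT+HADido3CT, both at day 10 of suspension culture without LIF. In the second genotype the Dido3 protein, the longest product of Dido1, is truncated at the C terminus, and the missing region is supplied by overexpression. It is called mutant+CT here. No array carried the truncation alone or the overexpression alone, so their effects cannot be told apart, and the promoter of the construct and the number of cell clones are not given in the sources used here. The labels name 3 biological replicates, and on each of 3 two-colour arrays 1 RNA of either genotype was hybridised together. Wild type had the red dye Cy5 on 2 arrays (replicates 1 and 3), and the dyes were swapped on replicate 2, whose own difference cannot be told apart from a dye effect. The gene that was altered, Dido1, had log2 ratios (mutant+CT to wild type) of -0.013, 1.579 and 0.745 at its brightest probe, whose place relative to the truncated part was not determined, so it does not check the labels.

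Heteromeric amino acid transporters consist of a heavy chain, a glycoprotein that spans the membrane once and brings the complex to the cell surface, and a light chain, which spans it many times and carries the amino acids. The light chains mostly exchange an amino acid outside the cell for another inside it. Slc3a1 (rBAT) pairs with Slc7a9 at the apical surface of absorptive epithelia, where the complex takes up cystine and dibasic amino acids, and mutations of either gene cause cystinuria. Slc3a2 (the CD98 heavy chain) pairs with Slc7a5, Slc7a6, Slc7a7, Slc7a8 and Slc7a11. Slc7a1 and Slc7a3 belong to the same Slc7 family but are cationic amino acid transporters that work without a heavy chain, so they are not subunits of a heteromeric transporter. The visceral endoderm, the absorptive layer around the early embryo, takes up nutrients for it.

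The members were read by 11 probes on 20 spots, 1 probe each for 9 of the 10 genes. Slc7a5 had a more 5′ and a more 3′ probe, and the Slc7a8 probe was printed 10 times per array. The probes of the heavy chains, and the Slc7a5 probe nearer the start of the transcript, are shown because the results turn on them. The Slc3a1 probe begins at base 1865 of its transcript and lies on the plus strand at chr17:85463142-85463201 of mm9, the build of the array design. The Slc3a2 probe begins at base 1695, lies on the minus strand at chr19:8782189-8782248, and is shown up to the first stop triplet of its first reading frame, in capitals. The Slc7a5 probe begins at base 533 and lies on the minus strand at chr8:124430996-124431055.
Slc3a1: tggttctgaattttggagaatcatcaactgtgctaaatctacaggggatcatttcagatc
Slc3a2: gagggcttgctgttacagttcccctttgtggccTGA
Slc7a5: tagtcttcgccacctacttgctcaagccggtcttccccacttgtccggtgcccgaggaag
The other probes start between base 1795 (Slc7a9) and base 8325 (Slc7a11) of their transcripts. The GC content was 60.0% for this Slc7a5 probe and 53.3% for the Slc3a2 probe, against 35% to 43.3% for the other 9 probes. No member probe held a GAA repeat of more than 3 bases. Because probes differ in sequence, intensities of the members are compared between RNAs at 1 probe. Between probes they served only to pick the brightest probe of a gene. The summed intensities of marker lists given below add different probes, so bright probes weigh most in them.

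Both subunits of the cystine transporter, the stem cell transporter Slc7a3 and the light chain Slc7a8 had the highest ratios of the set, while the common heavy chain Slc3a2 did not move one way. Ratios are given on the log2 scale with mutant+CT as numerator and as the mean ± SD of the 3 arrays, so that 1 stands for a 2-fold difference. Of 9 members bright enough in one RNA on all 3 arrays, 3 were at least 2-fold higher in mutant+CT on every array (Slc3a1, Slc7a9 and Slc7a3), against 1.90% of all tested genes, and 0 were at least 2-fold lower, against 0.991%. Higher on every array were 5 of 9, against 20.3% of all genes, and lower on every array was 1, Slc7a6, against 17.4%. The members were picked with these ratios known, so nothing is read from the counts or from the median of the set. The median ratio of the 9 was 0.73, and that of all tested genes -0.003. In limma with Benjamini-Hochberg adjustment over all 20389 genes, 0 genes had an adjusted p under 0.05, 3211 had an unadjusted p under 0.05, and 298 (1.46%) had an adjusted p under 0.1. A separate-channel fit in limma gave 474 genes at adjusted p under 0.05. In a bulk sample, more cells of a type and more RNA per cell cannot be told apart.

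**Figure D1:**
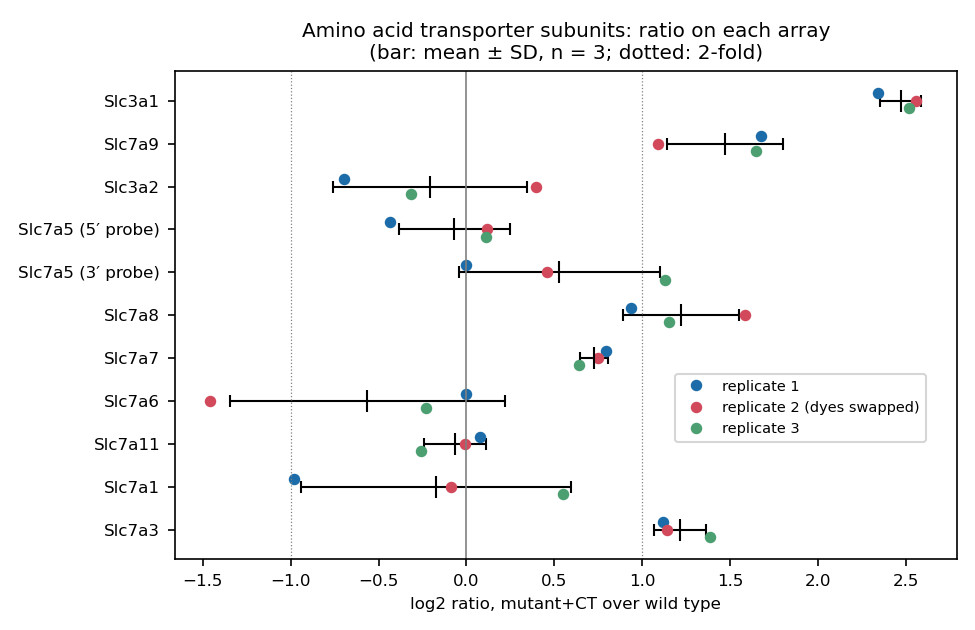
Log2 ratio of mutant+CT over wild type (x axis) for each probe of the 10 genes (rows); points are the 3 arrays and black bars the mean ± SD. Slc3a1, Slc7a9 and Slc7a3 lie above 1 on every array, whereas Slc3a2, Slc7a1 and both Slc7a5 probes have arrays on either side of 0.

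**Figure D2:**
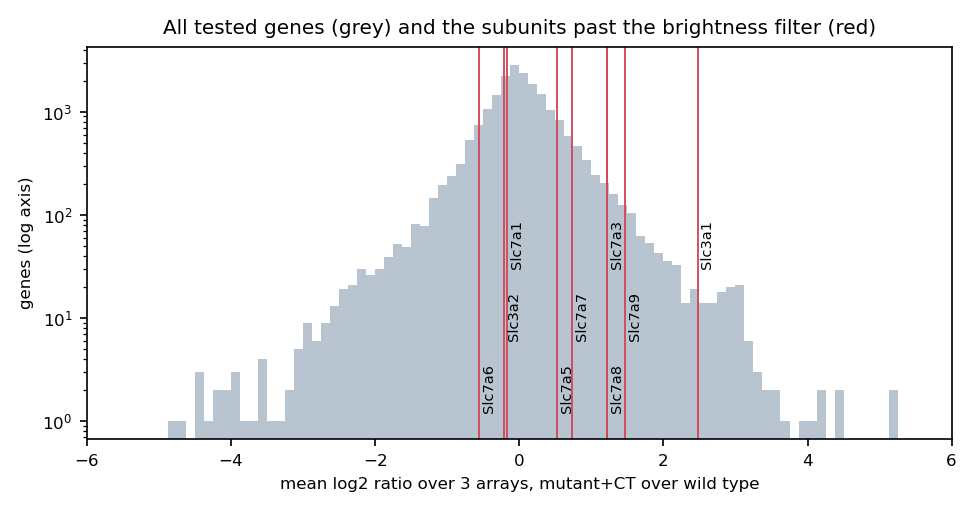
Number of tested genes (y axis, log scale) by mean log2 ratio over the 3 arrays (x axis), with the 9 members past the brightness filter as red lines. Slc3a1 lies at 2.47 in the upper tail, and Slc7a6 at -0.56 is the lowest member.

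Slc3a1 had the largest difference of the set. Its normalized intensity in wild type was 123 on replicate 1, 88.4 on replicate 2 and 103 on replicate 3. In mutant+CT it was 624, 521 and 594 in the same order. All 3 mutant+CT values lay above all wild-type values, and the spread within either group was small beside the gap. The log2 ratios were 2.34, 2.56 and 2.52, a mean of 2.47 ± 0.12 (SD, n = 3), or 5.55-fold. That mean is at percentile 99.44 of all tested genes. Before normalization the scanner read 80.3, 104.7 and 108.7 in wild type over local backgrounds of 32, 47 and 40.5, and 669.8, 516.6 and 654.6 in mutant+CT. Wild type was well above background on 2 of 3 arrays and not on replicate 2, the dye-swapped one, so its own level, and the size of the ratio there, is poorly measured. On Agilent's processed signals, which subtract the background without an added offset, the mean log2 ratio was 3.93 ± 0.59.

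Slc7a9, the light chain that pairs with Slc3a1, was also higher in mutant+CT on every array. Its normalized intensity in wild type was 441, 2289 and 523 on replicates 1, 2 and 3. In mutant+CT it was 1412, 4878 and 1636. The groups overlapped, because replicate 2 was high in both RNAs, but within each array mutant+CT was above wild type. Array by array the log2 ratio was 1.68, 1.09 and 1.65, a mean of 1.47 ± 0.33 or 2.77-fold. The highest wild-type value was 5.19 times the lowest, so the spread between replicates of one genotype was larger than the difference between genotypes on an array. The mean log2 ratio was below that of Slc3a1, but the gap depends on the near-background wild-type signal of Slc3a1: the means were 1.47 and 2.47 here and 1.54 and 3.93 on Agilent's processed signals.

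Most markers of visceral endoderm and yolk sac, fixed as a list of 19 genes, were also higher in mutant+CT. Of 18 tested, 12 were higher and 2 lower on every array, against 20.3% and 17.4% of all tested genes. The 2 lower ones were Gata4 (mean log2 ratio -0.67 ± 0.29) and Sox17 (-0.77 ± 0.36). The list had a median log2 ratio of 1.11. The summed normalized intensity of the 18 markers was 111585, 265790 and 133622 in wild type and 266744, 503206 and 180837 in mutant+CT on replicates 1 to 3. It was highest on replicate 2 in both genotypes, as was Slc7a9, whereas Slc3a1 in mutant+CT was lowest there. Alb was the only marker not tested. The part of these cells in the ratios of Slc3a1 and Slc7a9 was not tested.

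**Figure D3:**
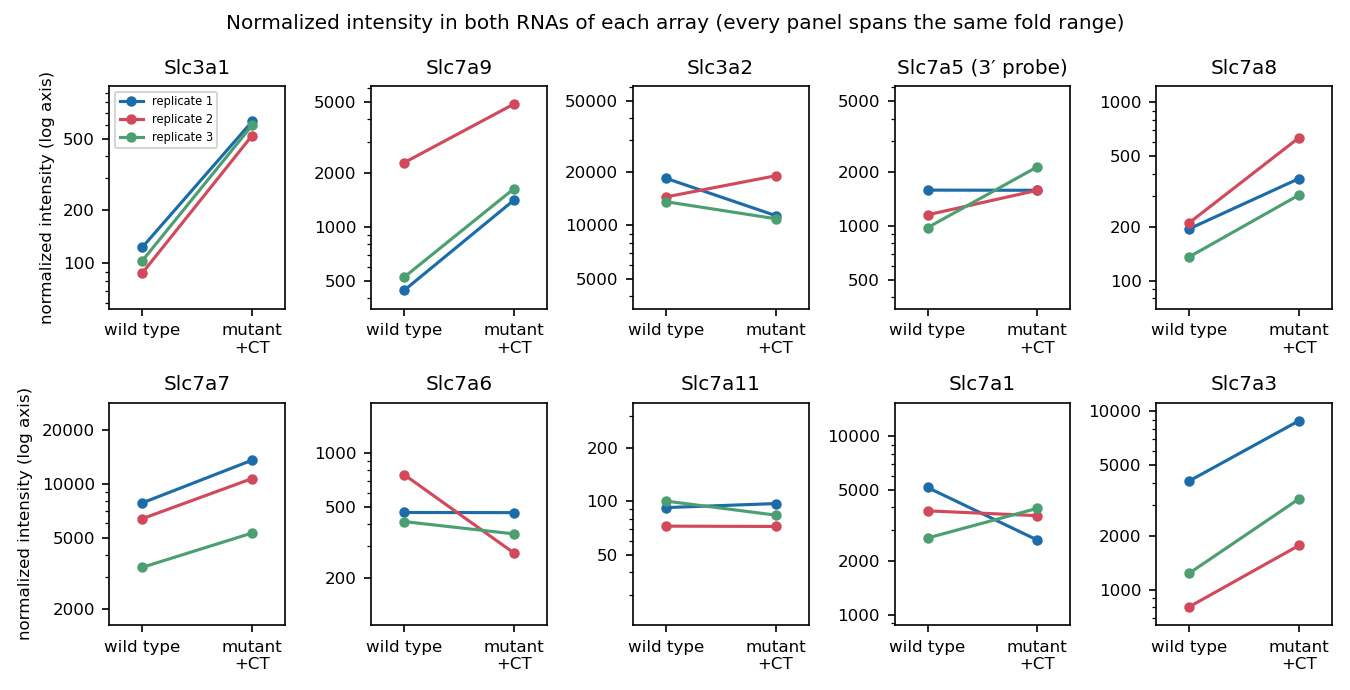
Normalized intensity (y axis, log scale, the same fold range in every panel) in wild type and mutant+CT for each of the 10 genes; a line joins both RNAs of an array. For Slc7a9, Slc7a3 and Slc7a7 the 3 lines run nearly side by side at different heights, while those of Slc3a2 and Slc7a1 cross.

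Slc3a2, the heavy chain that the remaining light chains share, did not differ in one direction. Its normalized intensity in wild type was 18383, 14437 and 13588 on replicates 1 to 3. In mutant+CT it was 11357, 18973 and 10903. The groups overlapped, and mutant+CT was higher on the dye-swapped replicate 2 and lower on both others. The log2 ratios were -0.69, 0.39 and -0.32, a mean of -0.21 ± 0.55, at percentile 28.86 of all genes. Without replicate 1 the mean turned to 0.04.

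Slc7a5 (LAT1), which carries large neutral amino acids such as leucine and is the main light chain of growing cells, was read by 2 probes. At the more 3′ and brighter probe, on the minus strand at chr8:124405136-124405195, the normalized intensity was 1590, 1155 and 979 in wild type and 1586, 1586 and 2146 in mutant+CT. The log2 ratios were -0.003, 0.46 and 1.13, a mean of 0.53 ± 0.57. At the 5′ probe shown above they were -0.43, 0.12 and 0.11, a mean of -0.07 ± 0.32. That probe was dim, though well above background on every array. The scanner read 204.4, 199.5 and 111.5 in wild type and 220, 201.1 and 150.9 in mutant+CT, over local backgrounds of 36.5 to 44.5. Dim signals compress a difference, so its ratios are not on a par with those of the brighter probe. The probes gave the same order of arrays only in part, with replicate 1 lowest at both, and at neither did the groups separate.

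Slc7a8 (LAT2), a light chain for neutral amino acids found in many epithelia, was higher in mutant+CT on every array. Its normalized intensity in wild type was 196, 212 and 136 on replicates 1 to 3. In mutant+CT it was 375, 635 and 303, and the groups did not overlap, though the share of all genes without overlap was not computed. Replicates 1 to 3 gave log2 ratios of 0.94, 1.58 and 1.15, a mean of 1.22 ± 0.33 or 2.34-fold. It missed 2-fold on replicate 1 only. The probe's 10 spots allow the spread within an array to be set beside that between arrays. Their ratios ran from 0.72 to 1.14 with a median of 0.94 on replicate 1, from 1.47 to 1.72 with a median of 1.60 on replicate 2, and from 0.79 to 1.37 with a median of 1.17 on replicate 3. The SD between spots was 0.15, 0.08 and 0.18, below the SD of 0.33 between arrays. At least 2-fold were 3, 10 and 8 of the 10 spots. All 10 spots were well above background in both RNAs on every array.

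**Figure D4:**
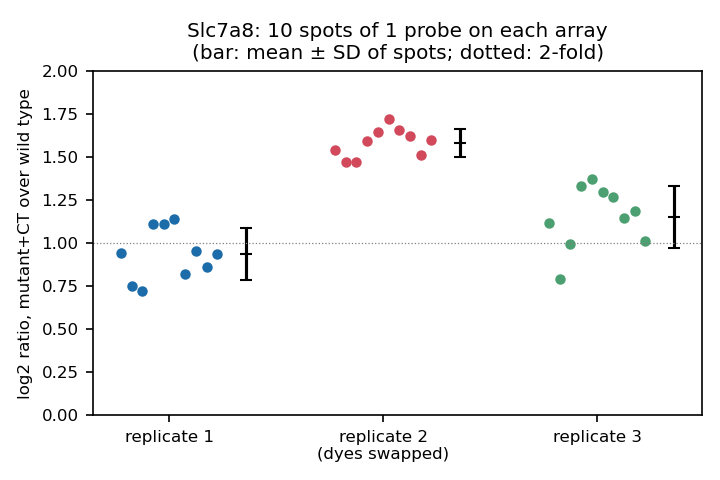
Log2 ratio of mutant+CT over wild type (y axis) at each of the 10 spots of the Slc7a8 probe on the 3 arrays; bars are the mean ± SD of the spots. The spots of replicate 2 lie between 1.47 and 1.72, above the highest spot of either other array.

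Slc7a7 and Slc7a6 encode light chains that export dibasic amino acids in exchange for neutral ones and sodium, and loss of the first causes lysinuric protein intolerance. The normalized intensity of Slc7a7 was 7818, 6377 and 3405 in wild type and 13560, 10700 and 5301 in mutant+CT on replicates 1 to 3. The groups overlapped, since replicate 3 was low in both RNAs, but mutant+CT was the higher on each array. Its log2 ratio was 0.79, 0.75 and 0.64, a mean of 0.73 ± 0.08 or 1.65-fold, the smallest SD of the set. Slc7a6 had 465, 758 and 414 in wild type and 464, 276 and 353 in mutant+CT. Its log2 ratios were -0.003, -1.46 and -0.23, a mean of -0.56 ± 0.78, so most of the difference came from the dye-swapped replicate 2. Slc7a7 is also expressed in macrophages. Of 9 tested macrophage markers, 5 were higher and 0 lower on every array, against 20.3% and 17.4% of all tested genes. The median log2 ratio of the 9 markers was 0.36. Their summed normalized intensity was 5633, 8731 and 2620 in wild type and 5184, 14447 and 5273 in mutant+CT on replicates 1 to 3. On replicate 1, where Slc7a7 had its highest ratio, that sum was lower in mutant+CT, although the median log2 ratio of the markers there was 0.28. Aif1, Lyz2 and Ptprc were not tested, and the part of such cells in the Slc7a7 ratio was not tested.

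Slc7a11 (xCT), which takes up cystine in exchange for glutamate and so feeds the synthesis of glutathione, was the 1 member that did not pass the brightness filter. Its probe was well above background in each RNA on replicates 1 and 3 and in neither on replicate 2. Its normalized intensity was 92.2, 72.6 and 100.3 in wild type and 97.1, 72.3 and 83.7 in mutant+CT. The log2 ratios were 0.07, -0.01 and -0.26. A difference was not detectable at so low a signal.

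The members that need no heavy chain went apart. Slc7a3 (CAT-3), a transporter of arginine and lysine found in stem cells and brain, had a normalized intensity of 4082, 805 and 1241 in wild type on replicates 1 to 3. In mutant+CT it was 8876, 1777 and 3241. The groups overlapped, since replicate 1 was high in both RNAs, but within each array mutant+CT was more than 2-fold higher. The log2 ratios were 1.12, 1.14 and 1.38, a mean of 1.22 ± 0.15 or 2.32-fold. Slc7a1 (CAT-1), the arginine transporter of most cells, had 5179, 3830 and 2698 in wild type and 2628, 3600 and 3956 in mutant+CT. Its log2 ratios were -0.98, -0.09 and 0.55, a mean of -0.17 ± 0.77, and without replicate 1 the mean turned to 0.23. The log2 ratio of Slc7a1 was below that of Slc7a3 on each array, by 2.10, 1.23 and 0.83 (mean difference -1.39 ± 0.65, Slc7a1 minus Slc7a3).

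Most markers of naive pluripotency were higher in mutant+CT, as Slc7a3 was. Of 15 tested, 12 were higher and 0 lower on every array, against 20.3% and 17.4% of all tested genes. Nanog (mean log2 ratio 0.09 ± 0.09), Sox2 (0.16 ± 0.62) and Klf4 (-0.68 ± 1.01) had mixed signs. The list had a median log2 ratio of 1.59, and the median was 0.78, 1.10 and 2.62 on replicates 1 to 3. The summed normalized intensity of the 15 markers was 134914, 75181 and 83796 in wild type and 216946, 173682 and 533477 in mutant+CT. In wild type Slc7a3 and this sum were both highest on replicate 1 and lowest on replicate 2. In mutant+CT the sum was highest on replicate 3 and Slc7a3 on replicate 1. The part of undifferentiated cells in the Slc7a3 ratio was not tested.

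Of the 4 light chains of Slc3a2 past the filter, Slc7a7 and Slc7a8 had a higher log2 ratio than the heavy chain on every array, Slc7a5 did so at its brighter probe only, and Slc7a6 did not. Slc7a8 exceeded Slc3a2 by 1.63, 1.19 and 1.47 (mean 1.43 ± 0.22) and Slc7a7 by 1.49, 0.35 and 0.96 (mean 0.93 ± 0.57). Slc7a5, at its brighter probe, exceeded it by 0.69, 0.06 and 1.45, while its 5′ probe was lower on replicate 2 (0.12 against 0.39). Slc7a6 differed from it by 0.69, -1.85 and 0.09. The difference was steadiest for Slc7a8, with the smallest SD of the 4.

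The rest of the Slc7 family gave little signal. Of 7 further genes on the array, 3 passed the brightness filter. Slc7a10, a light chain of Slc3a2 for small neutral amino acids, had a log2 ratio of -0.06 ± 0.35, Slc7a4 had 0.17 ± 0.34 and Slc7a14 had 0.12 ± 0.06. Slc7a13, the other light chain reported to pair with Slc3a1, was well above background in neither RNA on any array. The same held for Slc7a12, whereas Slc7a2 was above background on 1 array in wild type and 2 in mutant+CT, and Slc7a15 on 1 array in mutant+CT at 1 of its 3 probes. The 4 dim genes had log2 ratios between -0.23 and 0.23 at all their probes and arrays, where dim signals compress a difference.

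Related gene lists were read in the fit over all genes, against a background of 20.3% higher and 17.4% lower on every array. The 14 lists are 6 related lists and the cell type marker lists, with 217 tested genes together. Of these, 0 had an adjusted p under 0.05 (limma, Benjamini-Hochberg over 20389 genes), and the smallest adjusted p was 0.0734. An unadjusted limma p under 0.05 was found for 71 of the 217, against 3211 of all 20389 genes. Among marker lists the most were in naive pluripotency (11), visceral endoderm and yolk sac (11), trophoblast (7) and neural progenitor (6). The 6 related lists had between 0 and 11 each. Of 31 other amino acid transporters, 8 were higher and 10 lower on every array, with a median log2 ratio of 0.06. Slc38a6, an orphan of the sodium-coupled neutral family, had 1.77 ± 1.15, the taurine transporter Slc6a6 had 1.02 ± 0.23, and Slc38a2, the glutamine carrier that amino acid starvation induces, had -1.02 ± 0.86. Slc7a5 and Slc3a2 are induced through the transcription factor ATF4 when amino acids run short, as are the genes of the amino acid response list. On every array 9 of its 35 tested genes were higher and 7 lower, and the median was 0.22. Among its genes with the same sign on every array, those furthest from 0 were the transcription factor Cebpb at 1.25 ± 1.11, the transsulfuration enzyme Cbs at 1.18 ± 0.69 and the proline enzyme Pycr1 at -1.07 ± 0.55.

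Leucine, which Slc7a5 carries, acts on the kinase complex mTORC1 through a pathway of sensing proteins. In that pathway 2 of 31 tested genes were higher on every array and 6 were lower, with a median of -0.08. Deptor, an inhibitor of mTOR, had 2.63 ± 0.70 (limma adjusted p = 0.0843), the GTPase Rragb had -1.55 ± 0.18 (adjusted p = 0.0880), and the lysosomal anchor subunit Lamtor5 had -0.71 ± 0.46. Beside the cystine carriers, glutathione and NRF2 target genes were on every array higher in 8 and lower in 0 of 18 cases, with a median of 0.38. Both subunits of glutamate-cysteine ligase, which joins cysteine to glutamate, were at least 2-fold higher on every array. Gclm had 1.77 ± 0.32 (limma adjusted p = 0.0844) and Gclc had 1.295 ± 0.21 (adjusted p = 0.106), and the NRF2 inhibitor Keap1 had 0.93 ± 0.78. Slc7a11, itself an NRF2 target, was the dim member without such a ratio.

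**Figure D5:**
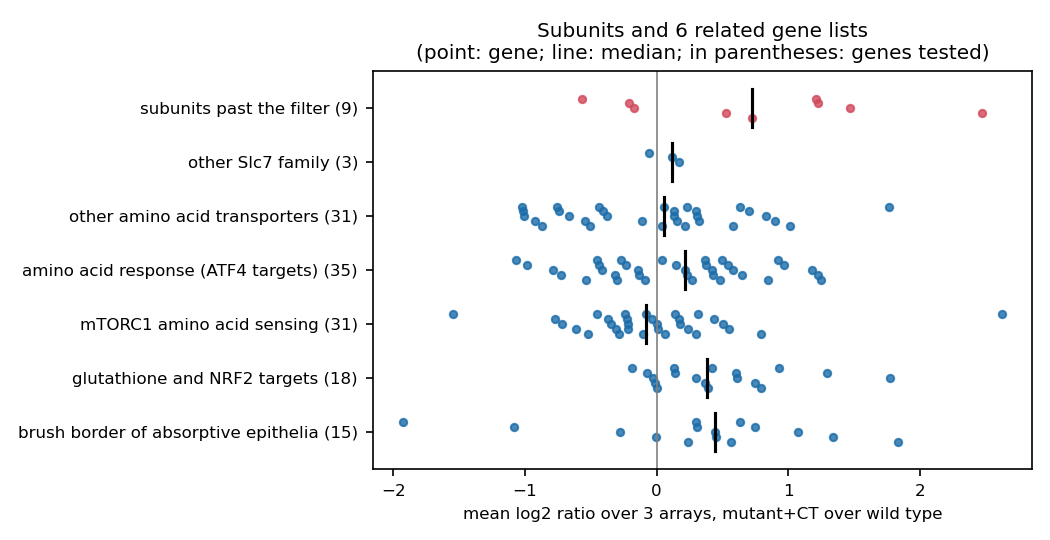
Mean log2 ratio over 3 arrays (x axis) of each tested gene (points) in the subunit set and in 6 related lists (rows), with the median as a black line. The members past the filter, Slc7a1 and Slc7a3 included, have a median of 0.73, and the 6 lists have medians between -0.08 and 0.44. The members were chosen with their ratios known, so nothing is read from this contrast.

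Slc3a1 and Slc7a9 sit in the brush border of absorptive cells, and the other brush border genes did not move as a block. Of 15 tested, 8 were higher and 2 lower on every array, with a median of 0.44. The actin bundler Vil1 (villin) had 1.34 ± 1.04 and the peptidase subunit Mep1b 1.84 ± 1.70, whereas the peptidase Enpep had -1.93 ± 0.85. Cltrn, the collectrin that carries amino acid transporters to the brush border, had 0.31 ± 0.24.

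As for the embryoid bodies as a whole, 68.1% to 78.5% of the spots of an RNA stood well above background with 0 saturated, and the SD of the log2 ratios over all genes was 0.77, 0.74 and 1.02 on replicates 1 to 3. The arrays were only loosely alike. Over all tested genes the Pearson correlation of the ratios was 0.18 for replicates 1 and 2, 0.54 for 1 and 3, and 0.38 for 2 and 3. Markers of several lineages were measured: all 9 cardiomyocyte and 7 erythroid genes, 14 of 16 trophoblast genes and 9 of 10 neural progenitor genes were tested. Neural progenitor genes had a median log2 ratio of -2.35, and cardiomyocyte genes 3.78, -1.42 and -1.71 on replicates 1 to 3, so the heart markers differed in direction between arrays. Trophoblast genes had a median of 0.98 and erythroid genes -0.66. The part of these cells in the transporter ratios was not tested.

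Genes beside the members on the chromosome, taken from the RefSeq order of GRCm38.p6, are set beside them. Slc3a1 lies between Ppm1b (log2 ratio 0.21 ± 0.44) and Prepl (-0.15 ± 0.21), against 2.47 for Slc3a1 itself. Slc7a9 lies between Cep89 (0.05 ± 0.21) and Tdrd12 (0.79 ± 0.71), and Slc7a7 between Oxa1l (-0.32 ± 0.07) and Mrpl52 (-0.13 ± 0.54). Slc7a3 on the X chromosome lies between Tex11 (1.22 ± 0.97), a meiosis gene with a mean as high as its own, and Snx12 (-0.32 ± 0.22). Slc7a6 lies between Pla2g15 (-0.40 ± 0.24) and Slc7a6os (0.19 ± 0.41). Wdr74, next to Slc3a2, had log2 ratios of -0.43, 0.31 and -0.21 on replicates 1 to 3, with the same signs as Slc3a2. Replicate 2 was the dye-swapped array, so these shared signs cannot be told apart from a dye effect. Mtus2, next to Slc7a1, had 2.001 ± 0.71, unlike Slc7a1. Neighbours of Slc7a5, Slc7a8 and Slc7a11 are left out here. The neighbours were looked up after the members' values were known.

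Upstream sequences were read from RefSeq (GRCm38.p6), which gave 15 start sites for 8 members, with none listed here for Slc7a3 and Slc7a5. The 250 bases before each start are the window searched on both strands. The pair of cystine transporter genes that were both higher are shown with any TATAAA in capitals, Slc3a1 at chr17:85028097-85028346 and Slc7a9 at chr7:35448842-35449091, both on the plus strand. The last 100 bases before the Slc7a11 start, on the minus strand at chr3:50443614-50443713, are shown with TGATGNAA, the core of the element that binds ATF4, in capitals on either strand.
Slc3a1: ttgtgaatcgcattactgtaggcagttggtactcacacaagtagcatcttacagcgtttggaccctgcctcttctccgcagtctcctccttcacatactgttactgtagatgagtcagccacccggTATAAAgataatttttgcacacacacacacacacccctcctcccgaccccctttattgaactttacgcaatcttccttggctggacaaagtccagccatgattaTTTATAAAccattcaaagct
Slc7a9: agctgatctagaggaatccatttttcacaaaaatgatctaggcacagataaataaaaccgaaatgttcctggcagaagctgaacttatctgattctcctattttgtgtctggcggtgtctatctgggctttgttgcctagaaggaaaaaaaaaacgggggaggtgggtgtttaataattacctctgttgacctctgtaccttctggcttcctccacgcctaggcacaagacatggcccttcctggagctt
Slc7a11: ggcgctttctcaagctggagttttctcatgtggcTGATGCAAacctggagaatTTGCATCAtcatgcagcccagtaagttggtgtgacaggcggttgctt
Slc3a1 held TATAAA at 3 places, of which 2 overlap on opposite strands, and 12.4% of all 32851 windows hold that motif. Slc7a9 held none of the letters searched. TGATGNAA was in 3 of the 15 member windows, 1 of Slc7a11 and 2 of Slc7a7, against 3.45% of all windows, and Slc7a11 held it on both strands, 66 and 47 bases before the start. TGACNNNGC, the core of the element that binds NRF2, was in 2 member windows, of Slc7a1 and Slc7a6, against 10.2% of all windows. GTTAAT, a half-site of HNF1, was in 1, of Slc7a7, against 6.43%, and CCAAT in 1, of Slc7a11, against 33.9%. TATAAA was also in 1 window of Slc7a1. These matches describe letters only.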

How the data were processed

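Intensity values (mean spot brightness and median local background per dye) are those the authors deposited. Per the file headers they were extracted with Agilent Feature Extraction 10.7.3.1. The same deposited files hold Agilent's processed intensity, background-subtracted and dye-normalized, and a log10 ratio (red to green), which served to check the direction. The deposited value table holds log2 ratios, made with limma per the submitters' processing notes by steps not given in the sources used here. Its columns have medians of -0.02, 0.01 and -0.01 and correlate at 0.996, 0.997 and 0.999 with the mutant+CT over wild type ratios computed here.

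The tools were limma 3.58.1, statmod 1.5.0 and R 4.3.3. After a normexp background correction (offset 50), loess removed the dye trend of each array, with control spots at weight 0, and spots flagged as outliers (454, 234 and 507) were left out. Spots of a probe were averaged. A probe was kept when at least 50% of its spots were well above background on all 3 arrays in 1 of the RNAs (26317 of 39429). A gene is read from its brightest kept probe. Gene names came from RefSeq accessions (GRCm38.p6; 30708 of 43020 spots), otherwise from the files. The normalized intensity of each RNA comes from the loess ratio after quantile normalization of average intensities between arrays, offset included. Log2 ratios were tested against 0 with limma. The fit was also run on simulated ratios with known changes. Their arrays were independent and had no dye effect, so they check the calculation and not its behaviour on these arrays.

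The members, gene lists and rules were chosen with earlier results of these data known. All members are named, with the 3 list genes of largest mean ratio and 1 sign on every array for the related lists, and for the heavy chains the 5 most alike genes. Cltrn, Slc7a10, Slc7a4, the dim Slc7 genes, Dido1, Nanog, Sox2, Klf4, Gata4, Sox17 and the neighbouring genes were named after their values were seen. Alternatives were other background corrections, starting signals, normalizations, filters, probe rules, variance models, a dye term, the deposited table, and leaving out each array. The number of arrays limits the precision.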

Additional observations from a re-analysis of the deposited data

How the results depend on the processing

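The mean log2 ratios of Slc3a1, Slc7a3, Slc7a7, Slc7a8 and Slc7a9 (above 0) and of Slc7a6 (below 0) kept their sign under every alternative that gave them a value. For Slc7a6 the mean without replicate 2 was only -0.12 ± 0.16, so its direction rests mostly on that array. Of 98 member values under alternatives, 96 lay within 1 SD of those reported, and 2 moved further, Slc3a1 to 3.93 and Slc7a8 to 1.63, both on Agilent's processed signals, which carry no offset. Much of that count was fixed in advance. Leaving out 1 of 3 arrays cannot move a mean by 1 SD of the 3. The alternative filters and the probe rule mostly repeat the same values. The count of 96 is therefore no measure of robustness. The mean changed sign in 2 cases, Slc3a2 (0.04) and Slc7a1 (0.23), both without replicate 1. The number of members at least 2-fold higher on every array was 2 to 4: Slc7a8 joined on Agilent's processed signals, with median centring and without replicate 1, and Slc3a1 left when both RNAs had to be above background. It was 0 for 2-fold lower under every setting run. Across the whole array the limma count of 0 genes at adjusted p under 0.05 became 325 on Agilent's processed signals (207 higher), 474 when the channels were fitted separately, 176 under a variance prior that was trended and robust, and 12 with the filter in both channels. It ran from 0 to 147 when 1 array was left out, with 147 without replicate 1. The matching counts of list genes were 9, 8, 7 and 1 (Ctsj, a placental cathepsin), and 0 to 11 when 1 array was left out. The cause was not tested. Both RNAs of a replicate share an array, so the ratios are paired by construction; fitting the channels separately is the fit that does not take the pairing as fixed. Slc7a11 and Slc3a1 in wild type are limited by signal near background, and the 5′ probe of Slc7a5 was dim as well.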

Other observations

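Genes with the pattern most like each heavy chain over the 6 normalized intensities (log2, centred per gene, 3 arrays that each give 2 values) were listed by Euclidean distance. For Slc3a1 the closest genes were an unnamed transcript at probe A_55_P2054098 (distance 0.54), Yjefn3 (0.55), LOC100047183 (0.58), Ago2 (0.61) and the transcript BQ939345 (0.63), with log2 ratios of 2.897, 2.08, 2.63, 2.39 and 2.10. Slc7a9 was not among them. For Slc3a2 they were Yif1a (0.12), Cdh8 (0.14), the transcript TC1630414 (0.15), probe A_55_P2106844 (0.15) and Cyp4f17 (0.17), with log2 ratios between -0.25 and -0.14.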
